A study of Mus musculus with 28 samples.

Results

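Of the 10 genes considered here as calcium handling genes of the sarcoplasmic reticulum, 9 had a row in the deposited expression table, and all 9 passed the filter on low values. They were chosen by symbol among the 12732 genes of the table, of which 10819 were tested: *Atp2a1*, *Atp2a2*, *Casq1*, *Casq2*, *Pvalb*, *Ryr1*, *Srl*, *Hrc* and *Trdn*. The listed gene *Sln*, which encodes sarcolipin, a small membrane peptide that binds the calcium pump, had no row and was not analysed here. RNA was sequenced from tibialis anterior (TA) muscle, which lies along the shin and is rich in fast-twitch fibers, of 14 *mfn1,2* mice and 14 wt littermates, with 1 library per mouse. *mfn1,2* mice carried Myl1-Cre with 1 deleted and 1 floxed allele each of *Mfn1* and *Mfn2*, the mitofusins of the mitochondrial outer membrane. wt mice carried 1 wild-type and 1 floxed allele of each gene, and no Cre is named for them. Both genotypes came from a cross whose floxed parent also carried an mDendra flox allele, a mitochondrial fluorescent reporter. Myl1-Cre acts in fast-twitch fibers, so that the other cells of an *mfn1,2* muscle keep the floxed allele beside the deleted one. The labels give ages of 4, 6 and 8 weeks with 4 mice each per genotype and of 10 weeks with 2 mice each, but the columns of the table name only the genotype and a running number, so that the ages are mixed within each genotype here. No treatment was given.

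Contraction of a skeletal muscle fiber starts when the voltage sensor of the transverse tubule opens the release channel Ryr1 in the facing membrane of the sarcoplasmic reticulum, the calcium store of the fiber. Relaxation follows as SERCA pumps return calcium to the store, where calsequestrin holds it, and in fast fibers the cytosolic buffer parvalbumin takes up calcium meanwhile. Pump and calsequestrin each exist in a form best known from fast fibers, encoded by *Atp2a1* and *Casq1*, and a form best known from slow fibers and heart, encoded by *Atp2a2* and *Casq2*.

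RefSeq start sites (GRCm38.p6) were found for 6 of the 9 genes. The 250 bases before the start are shown for the fast and slow calsequestrin genes, which moved in opposite directions, and for *Atp2a1* and the 2 starts of *Pvalb*, which varied together. The E-box CANNTG, searched on both strands (its 2 strands read alike), is in capitals. It is the motif bound by myogenic regulatory factors.
Casq1: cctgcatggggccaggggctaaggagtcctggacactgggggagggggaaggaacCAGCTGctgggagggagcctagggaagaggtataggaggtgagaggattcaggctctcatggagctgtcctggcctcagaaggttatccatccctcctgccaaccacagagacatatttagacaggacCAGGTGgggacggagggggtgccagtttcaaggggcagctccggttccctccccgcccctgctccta
Casq2: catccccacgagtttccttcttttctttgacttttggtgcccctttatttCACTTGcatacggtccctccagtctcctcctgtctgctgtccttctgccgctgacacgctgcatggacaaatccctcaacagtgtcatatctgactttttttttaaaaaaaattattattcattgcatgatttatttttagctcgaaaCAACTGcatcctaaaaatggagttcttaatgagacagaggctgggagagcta
Atp2a1: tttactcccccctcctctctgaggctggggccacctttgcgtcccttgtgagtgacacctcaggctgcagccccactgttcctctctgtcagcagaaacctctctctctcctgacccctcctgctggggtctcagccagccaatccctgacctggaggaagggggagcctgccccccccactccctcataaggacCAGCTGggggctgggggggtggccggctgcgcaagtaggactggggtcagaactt
Pvalb, upstream start: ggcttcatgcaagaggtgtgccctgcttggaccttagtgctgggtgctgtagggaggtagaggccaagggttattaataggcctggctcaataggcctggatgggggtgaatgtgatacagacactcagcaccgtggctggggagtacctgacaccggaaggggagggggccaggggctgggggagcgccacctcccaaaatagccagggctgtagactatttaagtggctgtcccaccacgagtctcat
Pvalb, downstream start: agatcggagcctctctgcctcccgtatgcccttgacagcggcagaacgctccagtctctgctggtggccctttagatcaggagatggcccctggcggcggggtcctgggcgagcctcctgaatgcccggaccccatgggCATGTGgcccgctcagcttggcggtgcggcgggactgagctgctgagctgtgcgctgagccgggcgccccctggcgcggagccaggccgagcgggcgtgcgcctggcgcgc
These lie at chr1:172219896-172220145 (minus strand) for *Casq1*, chr3:102086165-102086414 (plus strand) for *Casq2*, chr7:126463074-126463323 (minus strand) for *Atp2a1*, and chr15:78206401-78206650 and chr15:78204238-78204487 (both minus strand) for *Pvalb*. *Casq1* and *Casq2* each held 2 E-boxes, *Atp2a1* held 1, and *Pvalb* held 0 before its upstream start and 1 before its downstream start. With *Hrc* (1 E-box) and *Ryr1* (0), 5 of the 6 genes had at least 1, against 66.2% of 32851 promoters of the same length. The units differ here and below: each promoter counts in the percentages, whereas *Pvalb*, with 2 starts, counts as 1 gene if either start matches. The calsequestrin promoters differed in base composition, with a GC content of 61.6% before *Casq1* and 41.6% before *Casq2*. GGAAA, the core read by NFAT factors, was found on either strand in 1 of the 6 genes (*Casq2*) and in 55.6% of all promoters. ACGTG, 1 form of the core of the hypoxia response element, was found in 1 (*Hrc*) and in 16.6%. The paper's own search of the AMPD1 promoter also allowed G as the first base of this core. That form was not counted here, although it occurs on either strand before *Casq2* and before the downstream start of *Pvalb*. The symmetric form of the MEF2 site was found in 0 and in 3.2%. These are matches of letters, and binding was not measured.

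Values below are expression values scaled so that the median gene is alike between libraries, and a log2 fold change is that of *mfn1,2* over wt on log2(value + 0.1). A gene is said to have risen or fallen where limma gave an adjusted *P* under 0.01 (Benjamini-Hochberg over all tested genes), and is called altered at a Bonferroni-adjusted *P* under 0.01 with an absolute log2 fold change over 1. In bulk muscle, fewer cells of a type and less RNA per cell cannot be told apart. *Mfn1* lay between 8.15 and 18.6 in *mfn1,2* libraries and between 35.8 and 78.8 in wt libraries, a log2 fold change of −2.04 (limma, adjusted *P* = 1.62e-14). *Mfn2* lay between 24.1 and 42.9 in *mfn1,2* and between 39.7 and 57.1 in wt, with a log2 fold change of −0.66 (limma, adjusted *P* = 4.59e-09) that turned to 0.40 (limma, adjusted *P* = 0.00911) with equal library totals. The deposited values of a library summed to 326643 to 419290 in *mfn1,2* and 426029 to 564123 in wt, of which mitochondrially encoded genes took 24.9 to 35.5% in *mfn1,2* and 49.4 to 71.3% in wt. Scaling therefore bears on every level below. The median log2 fold change of all tested genes was 0.026 after the main scaling, 0.64 in the values as deposited, 1.04 with equal library totals, 0.16 with equal totals without mitochondrially encoded genes, −0.038 with upper quartile scaling, 0.83 relative to *Actb*, and 0.47 relative to the fiber genes *Ttn*, *Neb*, *Acta1* and *Des*. In a clustering of all genes, 5 libraries stood apart from the rest of their genotype, namely DM8 of *mfn1,2* and WT6, WT8, WT9 and WT13 of wt, and values without them are given where they change a call or a contrast.

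Of the 9 genes, 2 rose and 4 fell in *mfn1,2* muscle, while 53.2% of all tested genes were called, 28.2% higher and 24.9% lower. *Atp2a2* and *Casq2* were the 2 that rose. *Casq1*, *Pvalb*, *Atp2a1* and *Ryr1* fell, the last 2 only under some of the scalings given below, and *Srl*, *Hrc* and *Trdn* passed in neither direction. *Atp2a2*, *Casq2*, *Casq1* and *Pvalb* were altered, 2 in each direction, against 11.1% of all tested genes, 6.02% upward and 5.12% downward. For *Casq1*, *Pvalb* and *Atp2a1* every *mfn1,2* library lay below every wt library, as it did for 5.08% of all tested genes, 11.2% not overlapping in either direction. None of the 9 had every *mfn1,2* library above wt, as 6.15% of all tested genes did. This separation depended on the scaling: all 3 genes overlapped in the values as deposited and with equal totals, and *Pvalb* alone of the 3 stayed separate relative to *Actb*, relative to the 4 fiber genes and with equal totals without mitochondrially encoded genes. In the values as deposited the genes without overlap were *Atp2a2* and *Hrc*, both higher in *mfn1,2*. With other scalings the counts and the background moved together. In the values as deposited 6 rose and 2 fell, beside 62.3% and 4.95% of all tested genes, and with equal totals 6 rose and 2 fell, beside 79.1% and 2.6%. Relative to *Actb* 4 rose and 2 fell, beside 65.8% and 3.36%, and relative to the 4 fiber genes 4 rose and 3 fell, beside 54.8% and 7.73%. After the main scaling the median log2 fold change of the 9 was −0.23, against 0.026 for all tested genes.

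**Figure D1:**
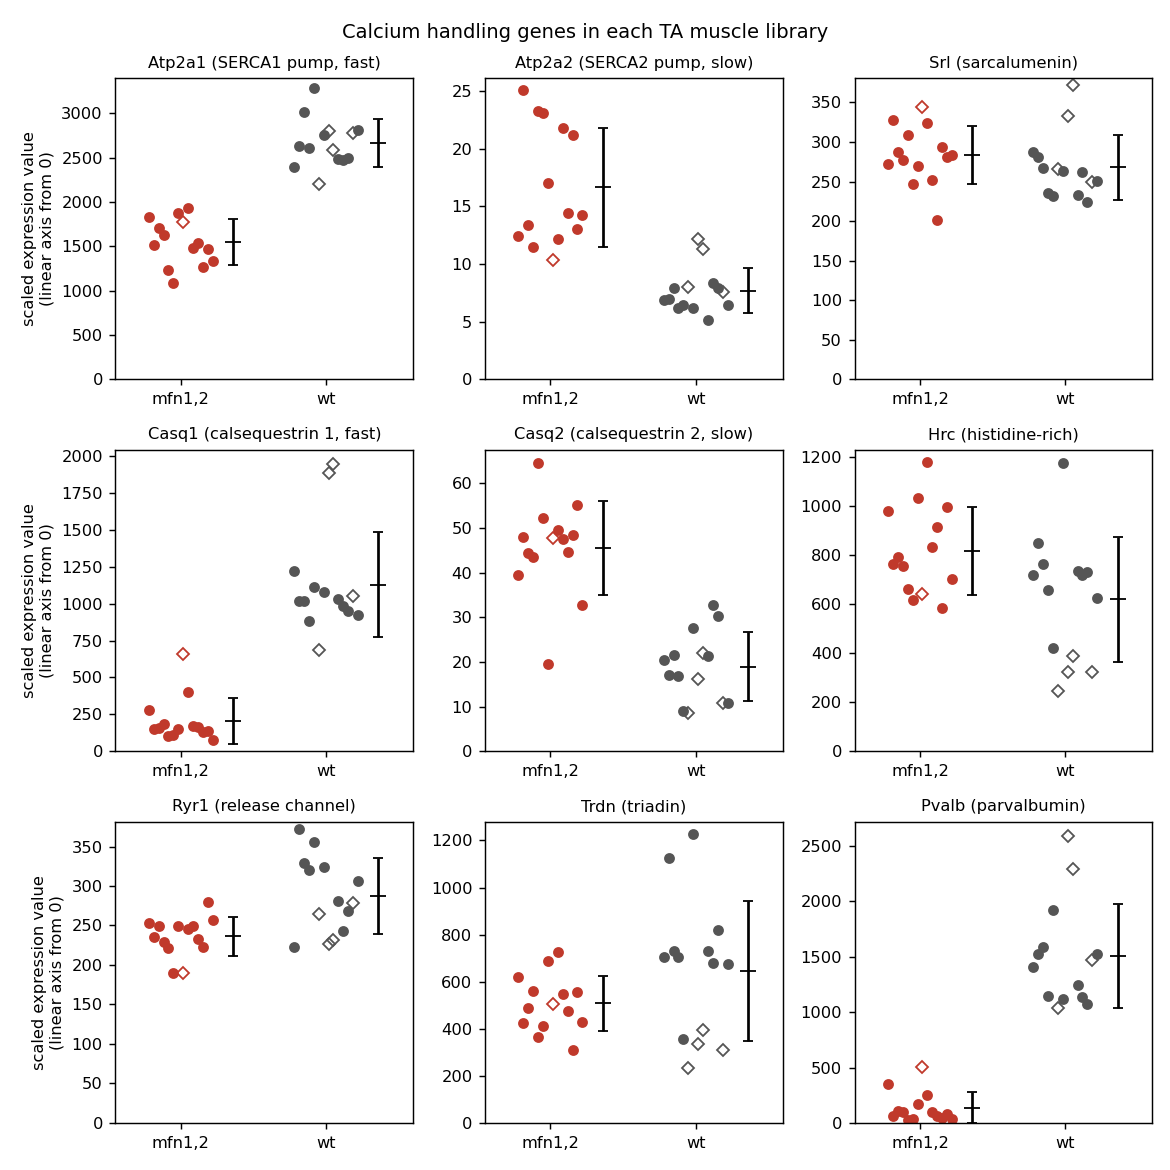
Scaled expression value (linear axis from 0) of the 9 calcium handling genes in 14 *mfn1,2* (left, red) and 14 wt (right, grey) TA muscle libraries. Each point is 1 library, diamonds are the 5 libraries that cluster apart, and the bar is the mean with its SD (cut at 0 for *Pvalb* in *mfn1,2*). *Casq1*, *Pvalb* and *Atp2a1* do not overlap between genotypes after this scaling, and the lowest wt values of *Hrc* and *Trdn* include the 4 wt diamonds.

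The pumps of the sarcoplasmic reticulum moved in opposite directions after the main scaling. *Atp2a1*, the fast-fiber pump SERCA1, lay between 1084 and 1927 with a median of 1525 in *mfn1,2* libraries, against 2204 to 3284 with a median of 2618 in wt libraries. All 14 *mfn1,2* libraries were below the lowest wt library. Its mean was 1548 ± 257 in *mfn1,2* and 2666 ± 272 in wt (SD, n = 14 each). The log2 fold change was −0.80 (SE 0.088, limma, adjusted *P* = 4.81e-09), but this fall was −0.16 (limma, adjusted *P* = 0.254) in the values as deposited, and the fold change was 0.26 (limma, adjusted *P* = 0.0988) with equal library totals and 0.038 (limma, adjusted *P* = 0.872) relative to *Actb*. Relative to the median of all tested genes it stayed between −0.82 and −0.78 under the 7 scalings, which by construction shift all genes of a library alike. *Atp2a2*, the slow-fiber and cardiac pump SERCA2, lay between 10.3 and 25.1 with a median of 14.4 in *mfn1,2*, against 5.14 to 12.1 with a median of 7.26 in wt. In 12 of 14 *mfn1,2* libraries it exceeded the highest wt library, and its log2 fold change was 1.08 (SE 0.14, limma, adjusted *P* = 8.77e-08). Without the 5 libraries that cluster apart it was 1.27 (limma, adjusted *P* = 1.39e-08).

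Because the values behave as a level per length, the pump genes can also be set against each other within a library, which no scaling changes. *Atp2a2* made up 0.579 to 2.09% of the sum of *Atp2a1* and *Atp2a2* in *mfn1,2* libraries with a median of 0.917%, against 0.195 to 0.436% with a median of 0.268% in wt libraries. The log2 ratio of *Atp2a2* to *Atp2a1* was 1.89 higher in *mfn1,2* (SE 0.195, 3.71-fold, permutation test, *P* = 1e-05, the smallest that 100000 resamples can give, adjusted *P* = 1.33e-05 over the 4 ratios computed), with no overlap between genotypes. *Atp2a1* still accounted for nearly the whole of the sum in both. The summed level of both genes had a median of 1545 in *mfn1,2* and 2625 in wt after the main scaling.

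Calsequestrin 1 fell and calsequestrin 2 rose under each of the 7 scalings. *Casq1*, which encodes the main calcium-binding protein of the fast-fiber store, lay between 73.6 and 659 with a median of 152 in *mfn1,2* libraries, against 684 to 1946 with a median of 1025 in wt libraries. The groups did not overlap, but the highest *mfn1,2* library (DM8, 659) came close to the lowest wt library (WT6, 684), both of them libraries that cluster apart. The log2 fold change was −2.66 (SE 0.23, limma, adjusted *P* = 2.37e-11), and −2.72 (limma, adjusted *P* = 3.14e-12) without the 5 libraries. The next *mfn1,2* libraries were DM9 at 401 and DM1 at 281. *Casq2*, the calsequestrin of heart and slow fibers, lay between 19.5 and 64.6 with a median of 47.6 in *mfn1,2*, against 8.54 to 32.8 with a median of 18.7 in wt. It exceeded the highest wt library in 12 of 14 *mfn1,2* libraries, with a log2 fold change of 1.34 (SE 0.19, limma, adjusted *P* = 4.35e-07) and of 1.18 (limma, adjusted *P* = 1.59e-05) without the 5 libraries, where it no longer counted as altered.

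*Casq2* made up a median of 21.9% of the sum of both calsequestrin genes in *mfn1,2* muscle (6.76 to 38.4%), against a median of 1.64% in wt muscle (0.798 to 3.22%). The lowest share among *mfn1,2* libraries, that of DM8, was above the highest wt share. The log2 ratio of *Casq2* to *Casq1* was 4.00 higher in *mfn1,2* (SE 0.294, 16.0-fold, permutation test, *P* = 1e-05, the smallest possible, adjusted *P* = 1.33e-05). In scaled level the sum of both had a median of 198 in *mfn1,2* and 1046 in wt, so that the rise of *Casq2* was small beside the fall of *Casq1*.

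The largest fall among the 9 genes was that of *Pvalb*, which encodes parvalbumin. It lay between 30.2 and 508 with a median of 86.4 in *mfn1,2* libraries, against 1033 to 2586 with a median of 1435 in wt libraries, without overlap. In the values as deposited the highest *mfn1,2* library (725) exceeded the lowest wt library (675). The log2 fold change was −3.96 (SE 0.34, limma, adjusted *P* = 2.38e-11), and −4.05 (limma, adjusted *P* = 1.48e-10) without the 5 libraries. Relative to *Atp2a1*, which is likewise best known from fast fibers, *Pvalb* had a median ratio of 0.0555 in *mfn1,2* (0.0241 to 0.286) and of 0.528 in wt (0.405 to 0.924). Its fall was larger than that of *Atp2a1*, with a log2 ratio changed by −3.17 (SE 0.306, permutation test, *P* = 1e-05, the smallest possible, adjusted *P* = 1.33e-05) and no overlap. *Pvalb* also varied more within *mfn1,2*, with a coefficient of variation of 102% there and 31.2% in wt. A permutation test of the spread of log2 values gave *P* = 0.00165 for *Pvalb*, adjusted to 0.0148 over the 9 genes, and none of the 9 passed at 0.01, with *Pvalb* alone under 0.05 before adjustment.

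**Figure D2:**
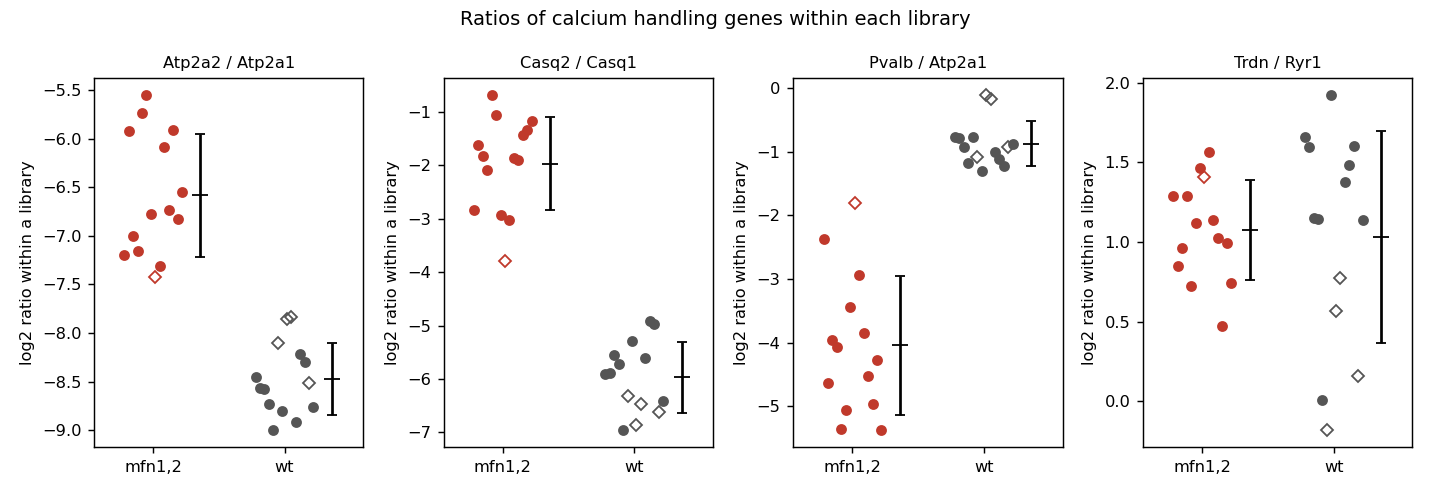
Log2 ratio within each library of *Atp2a2* to *Atp2a1*, *Casq2* to *Casq1*, *Pvalb* to *Atp2a1* and *Trdn* to *Ryr1*, for *mfn1,2* (left, red) and wt (right, grey). Points are libraries, diamonds the 5 that cluster apart, and bars the mean with its SD. The genotypes do not overlap in the first 3 ratios and overlap in *Trdn* to *Ryr1*.

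The release channel and its luminal partner showed smaller differences, which depended on the scaling or, for *Trdn*, on the 4 wt libraries that cluster apart. *Ryr1*, the calcium release channel, lay between 190 and 279 with a median of 240 in *mfn1,2* libraries, against 223 to 372 with a median of 280 in wt libraries. The ranges overlapped, although all 14 *mfn1,2* libraries were below the wt median. Its log2 fold change was −0.27 (SE 0.081, limma, adjusted *P* = 0.00422), but it was 0.37 (limma, adjusted *P* = 6.12e-04) in the values as deposited, 0.78 (limma, adjusted *P* = 2.80e-07) with equal library totals, 0.56 (limma, adjusted *P* = 0.0268) relative to *Actb* and 0.19 (limma, adjusted *P* = 0.0462) relative to the 4 fiber genes. Relative to the median of all tested genes, *Ryr1* stayed between −0.30 and −0.25 under the 7 scalings. *Trdn*, which encodes triadin, the membrane protein that holds calsequestrin near the release channel, lay between 310 and 725 with a median of 496 in *mfn1,2*, against 234 to 1228 with a median of 692 in wt. The *mfn1,2* values fell inside the wt range, and the log2 fold change was −0.23 (limma, adjusted *P* = 0.337). Without the 4 wt libraries that cluster apart it was −0.58 (limma, adjusted *P* = 0.00267), whereas it was 0.41 (limma, adjusted *P* = 0.00625) in the values as deposited and 0.83 (limma, adjusted *P* = 2.96e-07) with equal totals. With all libraries, *Trdn* lay between −0.25 and −0.21 relative to the median of all tested genes under the 7 scalings. The ratio of *Trdn* to *Ryr1* within a library had a median of 2.10 in *mfn1,2* (1.39 to 2.96) and of 2.21 in wt (0.882 to 3.79), and the log2 ratio differed by 0.046 (SE 0.196, permutation test, *P* = 0.817). Without the 4 wt libraries it differed by −0.23 (permutation test, *P* = 0.189).

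The other luminal proteins, sarcalumenin and the histidine-rich calcium-binding protein, were not called after the main scaling. *Srl*, which encodes sarcalumenin, a calcium-binding glycoprotein of the store, lay between 201 and 344 with a median of 282 in *mfn1,2* libraries, against 224 to 372 with a median of 263 in wt libraries. Its log2 fold change was 0.081 with a 95% interval of −0.083 to 0.245 (limma, adjusted *P* = 0.383), and it rose by 0.54 to 1.14 in the values as deposited, with equal totals, relative to *Actb* and relative to the 4 fiber genes. The median of all tested genes rose with it, and relative to that median *Srl* stayed between 0.055 and 0.10 under the 7 scalings. *Hrc*, which encodes the histidine-rich protein that binds triadin and the pump, lay between 585 and 1181 with a median of 778 in *mfn1,2*, against 244 to 1174 with a median of 688 in wt. Only 1 *mfn1,2* library exceeded the wt range. The log2 fold change was 0.50 (limma, adjusted *P* = 0.0201), and *Hrc* rose under 5 of the 6 other scalings, by 0.64 to 1.55. Against the median of all tested genes, *Hrc* lay between 0.47 and 0.52 under the 7 scalings. It also passed without WT7, at 0.58 (limma, adjusted *P* = 0.00509), and was 0.18 (limma, adjusted *P* = 0.257) without the 5 libraries that cluster apart.

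*Hrc* and *Trdn* were low in the same wt libraries after the main scaling. WT5, WT6, WT8, WT9 and WT13 had 244 to 421 for *Hrc* and 234 to 396 for *Trdn*, whereas the other 9 wt libraries had 626 to 1174 for *Hrc* and 675 to 1228 for *Trdn*. The values of a library were divided by a scale factor of 0.980 to 1.09 in these 5 and 0.484 to 0.836 in the other 9. In the values as deposited the sets overlapped for *Hrc* (420 in WT5, 411 in WT2). For *Trdn* they did not (at most 405, in WT9, against at least 483, in WT4). The 5 libraries were also those with the lowest share of mitochondrially encoded genes in wt, at 49.4 to 56.5% of the summed value against 62.2 to 71.3% in the other 9. The part of this share in the wt levels of *Hrc* and *Trdn* was not tested. The coefficients of variation were 21.9% in *mfn1,2* and 41.0% in wt for *Hrc*, and 23.3% in *mfn1,2* and 46.0% in wt for *Trdn*, and the test of spread passed for neither (permutation test, adjusted *P* = 0.137 for both). With all libraries the SD of the log2 values was 0.310 in *mfn1,2* and 0.650 in wt for *Hrc*. For *Trdn* it was 0.342 in *mfn1,2* and 0.720 in wt. The 5 libraries that cluster apart are another set, with DM8 in place of WT5. Without them this SD was 0.308 in *mfn1,2* and 0.368 in wt for *Hrc*, and 0.356 in *mfn1,2* and 0.478 in wt for *Trdn*.

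**Figure D3:**
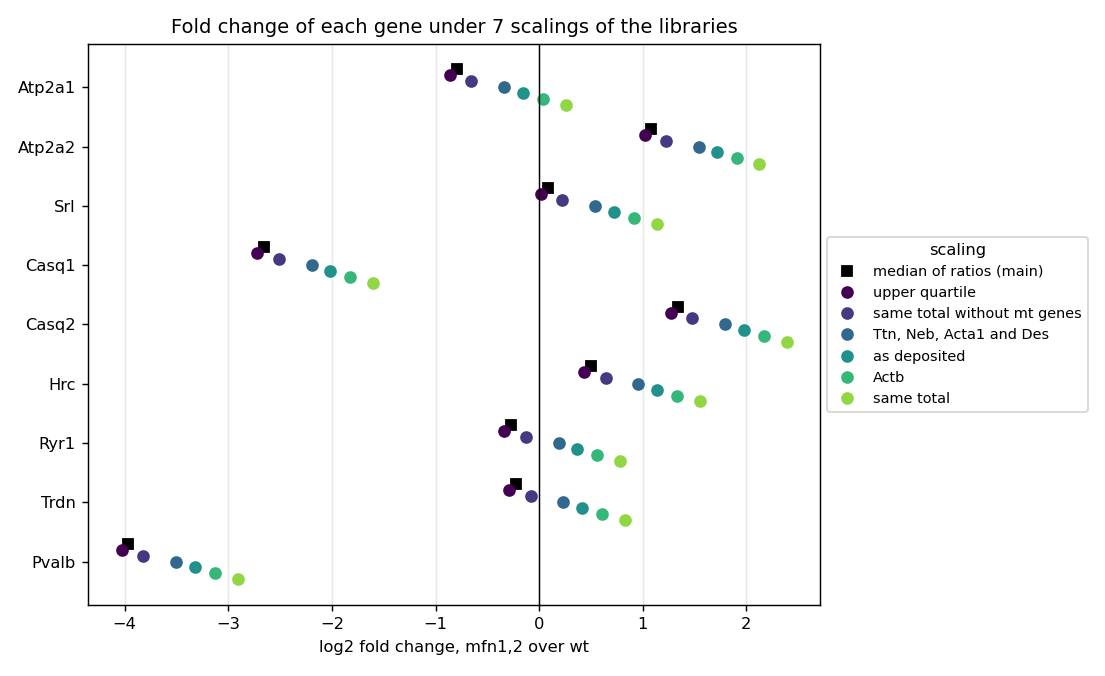
Log2 fold change of *mfn1,2* over wt for each of the 9 genes under 7 scalings of the libraries. Squares are the main scaling and circles the alternatives, ordered from the lowest to the highest median of all genes after it. *Atp2a2*, *Casq1*, *Casq2* and *Pvalb* keep their side of 0 throughout, whereas *Atp2a1*, *Ryr1* and *Trdn* cross it (−0.80 to 0.26 for *Atp2a1* between the main scaling and equal totals).

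The order of the 9 levels differed between the genotypes. By mean scaled value it was *Atp2a1* (1548), *Hrc* (818), *Trdn* (508), *Srl* (283), *Ryr1* (236), *Casq1* (205), *Pvalb* (138), *Casq2* (45.5) and *Atp2a2* (16.6) in *mfn1,2* muscle. In wt muscle it was *Atp2a1* (2666), *Pvalb* (1504), *Casq1* (1129), *Trdn* (645), *Hrc* (619), *Ryr1* (288), *Srl* (268), *Casq2* (18.9) and *Atp2a2* (7.67). *Ryr1*, *Casq1*, *Pvalb* and *Casq2* in *mfn1,2*, and *Pvalb* with *Casq1*, *Trdn* with *Hrc* and *Ryr1* with *Srl* in wt, were neighbors in these orders that differed by less than the larger SD of the pair. As shares of the sum of the 9 genes within a library, computed after the data had been seen and without a test, *Pvalb* took a median of 2.26% in *mfn1,2* (1.00 to 10.9%) and 20.3% in wt (14.02 to 30.4%). *Casq1* took 4.31% in *mfn1,2* and 14.4% in wt, and *Atp2a1* 41.5% in *mfn1,2* and 37.8% in wt. *Hrc* took 22.1% in *mfn1,2* and 9.93% in wt. *Srl* took 7.33% in *mfn1,2* (5.52 to 10.2%) and 3.58% in wt (3.00 to 5.38%), without overlap. Such shares add up to a whole, so that a lower share of *Pvalb* goes with higher shares of other genes.

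Within *mfn1,2* muscle, libraries with more *Pvalb* also had more *Atp2a1*. Over the 14 *mfn1,2* libraries the log2 values had Pearson's r = 0.88 (permutation test, *P* = 4e-05, adjusted *P* = 3.2e-04 over 8 correlations) and Spearman's rho = 0.89 (permutation test, *P* = 9e-05, adjusted *P* = 7.2e-04). Without DM8 and DM1, the 2 libraries farthest from the median of *Pvalb*, r was 0.93, and in the values as deposited it was 0.81 (permutation test, adjusted *P* = 0.00144). *Atp2a1* and *Atp2a2* had r = −0.67 in *mfn1,2* (permutation test, *P* = 0.00969, adjusted *P* = 0.0368) and rho = −0.63 (*P* = 0.0186, adjusted *P* = 0.0744, permutation test), with r = −0.57 without DM6 and DM9 and −0.43 (permutation test, adjusted *P* = 0.256) in the values as deposited. *Casq1* with *Casq2* (r = 0.083, rho = −0.21) and *Atp2a2* with *Casq2* (r = 0.17, rho = 0.30) showed no relation that passed in *mfn1,2* (permutation test, adjusted *P* = 0.956 for both r). DM8 was kept in the *mfn1,2* correlations, and without it the scaled values of *Pvalb* and *Atp2a1* had r = 0.91. For wt all 14 libraries had been planned, but they formed separate clusters, and only the 10 that cluster together were used. There *Pvalb* and *Atp2a1* had r = 0.73 (permutation test, *P* = 0.0138, adjusted *P* = 0.0368) and rho = 0.58 (permutation test, adjusted *P* = 0.236), with r = 0.44 without WT5 and WT12. In the values as deposited r was 0.91 in wt (permutation test, adjusted *P* = 0.00144), and 0.69 without its 2 farthest libraries. The other 3 pairs had r between −0.028 and 0.40 in wt. In the values as deposited *Atp2a1* and *Atp2a2* had r = 0.73 in wt (permutation test, adjusted *P* = 0.0162), so that this pair depended on the scaling. Ages are mixed in these libraries, and their part in the relations was not tested.

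**Figure D4:**
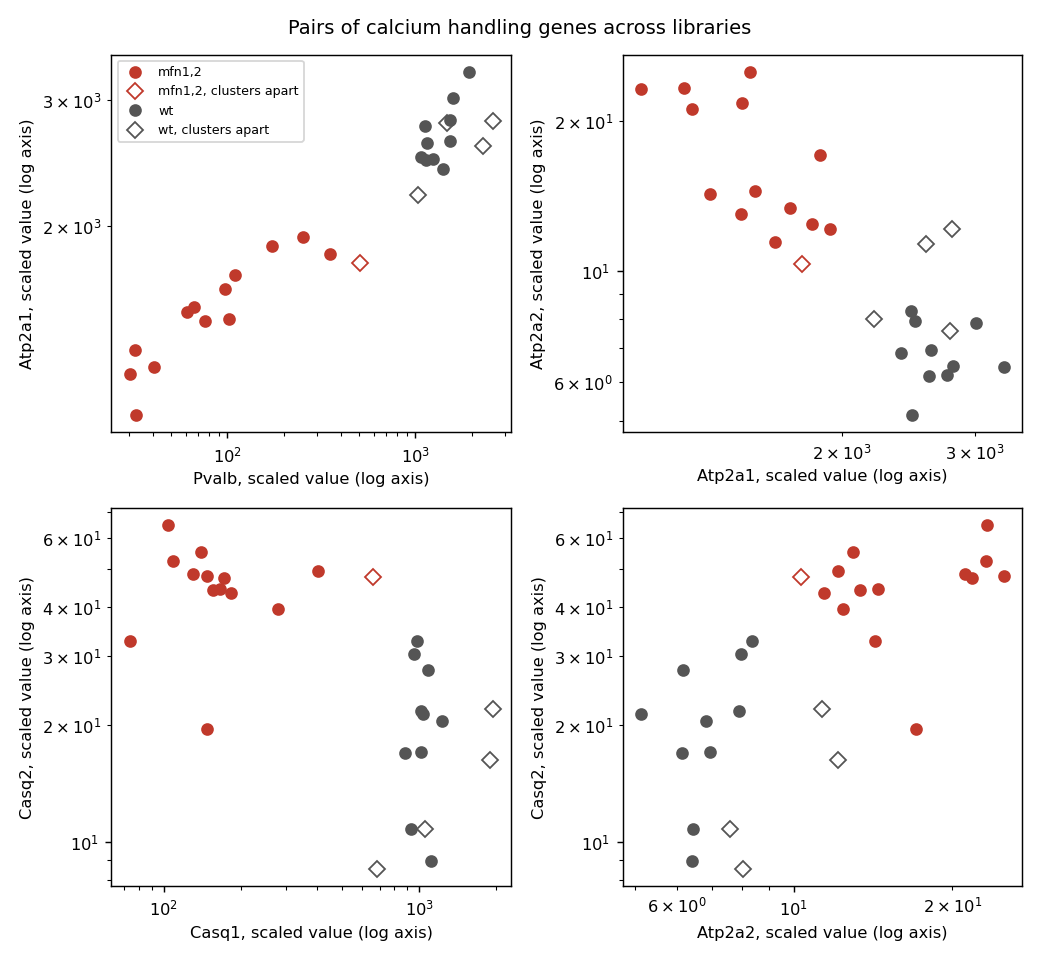
Scaled values of 4 pairs of genes on log axes, with 1 point per library, *mfn1,2* in red and wt in grey, and diamonds for the 5 libraries that cluster apart. *Pvalb* and *Atp2a1* rise together among the 14 *mfn1,2* libraries (r = 0.88), while *Casq1* and *Casq2* do not (r = 0.083).

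DM8, DM9 and DM1 had the highest *Casq1* and *Pvalb* among *mfn1,2* libraries. For *Pvalb* these were 508 in DM8, 351 in DM1 and 252 in DM9. DM8 had the lowest *Atp2a2* (10.3) and *Ryr1* (190) of its genotype and the highest *Srl* (344). It was also the *mfn1,2* library with the highest *Actn3*, the alpha-actinin of fast fibers, at 194 against 120 in the next, and the highest *Mybpc2*, fast myosin-binding protein C, at 229 against 112 in the next. For *Mfn1* it ranked 11 of 14 from the highest, at 10.5, and for *Mfn2* 2 of 14, at 38.0.

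Transcripts of fiber-type markers moved beside these genes. The paper stained TA sections for myosin types and reported no notable change in fiber type. That staining gave fractions of fibers by myosin protein, and the paper used mice of 4 weeks unless it stated otherwise. The transcript levels here are of whole muscle from mice of 4 to 10 weeks. Of 10 fast-fiber genes, 7 fell and 1 rose, with a summed level of 21428 to 37187 in *mfn1,2* and 18685 to 59379 in wt, and 4 of the 10 had every *mfn1,2* library below wt. With equal totals 4 fell and 4 rose, beside 2.6% and 79.1% of all tested genes. Without the 5 libraries that cluster apart 9 fell and 0 rose. *Actn3* had a median of 25.3 in *mfn1,2* and 849 in wt (log2 fold change −4.72), *Mybpc2* 37.1 in *mfn1,2* and 618 in wt (−3.79), *Mylk2*, the fast-fiber myosin light chain kinase, 12.9 in *mfn1,2* and 82.2 in wt (−2.67), and *Myh4*, the IIb myosin, 1349 in *mfn1,2* and 8425 in wt (−2.31). *Myh1*, the IIx myosin, rose by 0.62 (limma, adjusted *P* = 0.00612), a call that was lost without the 4 wt libraries that cluster apart. The fast troponin genes *Tnnt3* (−0.15) and *Tnnc2* (−0.0032) were not called, and with equal totals they were at 0.91 and 1.05. Of 8 slow-fiber genes, 5 rose and 0 fell, with a summed level of 155 to 571 in *mfn1,2* and 57.0 to 275 in wt, and 4 rose without the 5 libraries. Slow troponin T (*Tnnt1*) had a log2 fold change of 2.73, slow and cardiac troponin C (*Tnnc1*) 2.55, the slow and cardiac light chain *Myl2* 2.50 and calsarcin-1 (*Myoz2*) 1.49. *Myl2* was listed at 0 in 1 wt library and none of the other named slow-fiber genes in any. The part of these markers in the results on pump, calsequestrin and parvalbumin was not tested.

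*Atp2a2* and *Casq2* are also cardiac genes. Of 5 heart markers, *Nppa*, *Nppb* and *Myl7* had no row in the table. *Myh6* and *Tnni3* both rose, with a summed level of 4.74 to 30.3 in *mfn1,2* and 1.09 to 16.2 in wt, and *Tnni3* was listed at 0 in 4 *mfn1,2* and 11 wt libraries. Without the 5 libraries that cluster apart 1 of the 2 passed. Of 6 tested genes of developing or denervated fibers, 5 rose and 0 fell, with a summed level of 259 to 557 in *mfn1,2* and 17.6 to 295 in wt. Perinatal myosin (*Myh8*) had a median of 279 in *mfn1,2* (208 to 495) and of 0.323 in wt (0 to 252), so that the genotypes overlapped. It was listed at 0 in 4 wt libraries. The acetylcholine receptor subunit *Chrna1* had a median of 10.1 in *mfn1,2* and 1.45 in wt without overlap. *Ncam1*, a cell adhesion molecule, rose by 1.96 and the myogenic factor *Myog* by 1.57. Of the genes that all fibers use, nebulin (*Neb*) had a log2 fold change of −0.90, skeletal actin (*Acta1*) −1.23, desmin (*Des*) 0.49 and titin (*Ttn*) −0.21 (limma, adjusted *P* = 0.154). With equal totals *Neb* was at 0.15 and *Ttn* at 0.85. The part of these markers in the results was not tested.

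Around the 9 genes, 51 tested genes of 5 related lists described the rest of calcium handling. Of these, 7 rose and 28 fell, beside 28.2% of all tested genes higher and 24.9% lower, and their median log2 fold change was −0.51. The counts moved with the scaling, as did those of all tested genes. They were 16 higher and 9 lower in the values as deposited, beside 62.3% and 4.95% of all tested genes. With equal totals they were 31 and 4, beside 79.1% and 2.6%. Relative to *Actb* they were 17 and 6, beside 65.8% and 3.36%. Relative to the 4 fiber genes they were 14 and 15, beside 54.8% and 7.73%. The 3 cytosolic buffer genes listed besides *Pvalb* had no row in the table.

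Among 14 tested genes of the triad, the junction of tubule and store, 4 rose and 7 fell. *Jph2*, a junctophilin that ties the membranes together, lay between 6.99 and 18.0 with a median of 9.14 in *mfn1,2*, against 22.2 to 43.8 with a median of 34.6 in wt. Its values did not overlap, and its log2 fold change of −1.85 was still −0.80 with equal totals. *Stac3*, which links the voltage sensor to release, had a log2 fold change of −1.29, the triad protein mitsugumin 29 (*Sypl2*) −1.27 and *Asph*, whose transcripts include that of junctin, −1.12. These 3 kept their sign as deposited, with equal totals, relative to *Actb* and relative to the 4 fiber genes. None of the 3 passed with equal totals or relative to *Actb*, and *Sypl2* did not pass as deposited. *S100a1*, a calcium sensor that binds the release channel, rose by 0.95, with a median of 129 in *mfn1,2* and 61.3 in wt. *Cacng1*, the gamma subunit of the voltage sensor, rose by 0.90, whereas *Cacna1s*, its pore subunit, had −0.58 and turned to 0.48 with equal totals. *Ryr3*, the release channel of developing muscle, was below the filter, with 0.168 to 0.867 in *mfn1,2* and 0.0261 to 0.258 in wt.

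Of 9 tested pump regulators and genes of calcium export, 1 rose and 4 fell. *Mrln* encodes myoregulin, a small peptide that inhibits the SERCA pump in skeletal muscle. It had a median of 2.08 in *mfn1,2*, with 2 libraries listed at 0 and a highest of 5.97, against 9.80 to 25.98 with a median of 17.2 in wt. Its log2 fold change of −3.54, which depends on the pseudocount, was −2.57 with equal totals, and the genotypes did not overlap. The sodium-calcium exchangers of the surface membrane, *Slc8a3* at −1.89 and *Slc8a1* at −1.86, also fell, and *Slc8a1* no longer passed with equal totals (−0.87, limma, adjusted *P* = 0.0195). *Pln*, the pump inhibitor of heart and slow muscle, lay between 0.806 and 10.4 in *mfn1,2* and between 1.22 and 5.99 in wt, with a log2 fold change of 0.18 (limma, adjusted *P* = 0.630). *Atp2a3*, the pump SERCA3 best known from non-muscle cells, rose by 0.92, with a median of 2.67 in *mfn1,2* and 1.502 in wt.

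Of 10 tested genes of store-operated entry, IP3 receptors and other luminal binding, 1 rose and 3 fell. *Calr*, the luminal protein calreticulin, rose by 0.78, with a median of 158 in *mfn1,2* and 88.9 in wt. The IP3 receptor *Itpr1* had −0.81, *Itpr2* −0.63 and the store sensor *Stim2* −0.73, all of which turned positive with equal totals (0.23, 0.37 and 0.31). Calcium-dependent signalling was the most one-sided list, with 12 of 13 genes lower and 1 higher, although this became 3 lower and 1 higher in the values as deposited and 1 lower and 6 higher with equal totals. *Camk2b* had a median of 7.09 in *mfn1,2* and 20.1 in wt (log2 fold change −1.54), and *Camk2a* 14.1 in *mfn1,2* and 41.6 in wt (−1.51), both subunits of the calmodulin-dependent kinase CaMKII. *Calm3*, which encodes calmodulin, had −1.27, and the CaMKII subunit gene *Camk2g* had −0.996 but was at 0.058 with equal totals. *Camk2d*, a further CaMKII subunit, went the other way and rose by 0.55, with a median of 24.6 in *mfn1,2* and 16.5 in wt. Of 5 genes that anchor the store, *Obsl1* (−1.08) and *Speg* (−0.62) fell (3 genes without the 5 libraries that cluster apart), and *Speg* turned to 0.43 with equal totals.

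**Figure D5:**
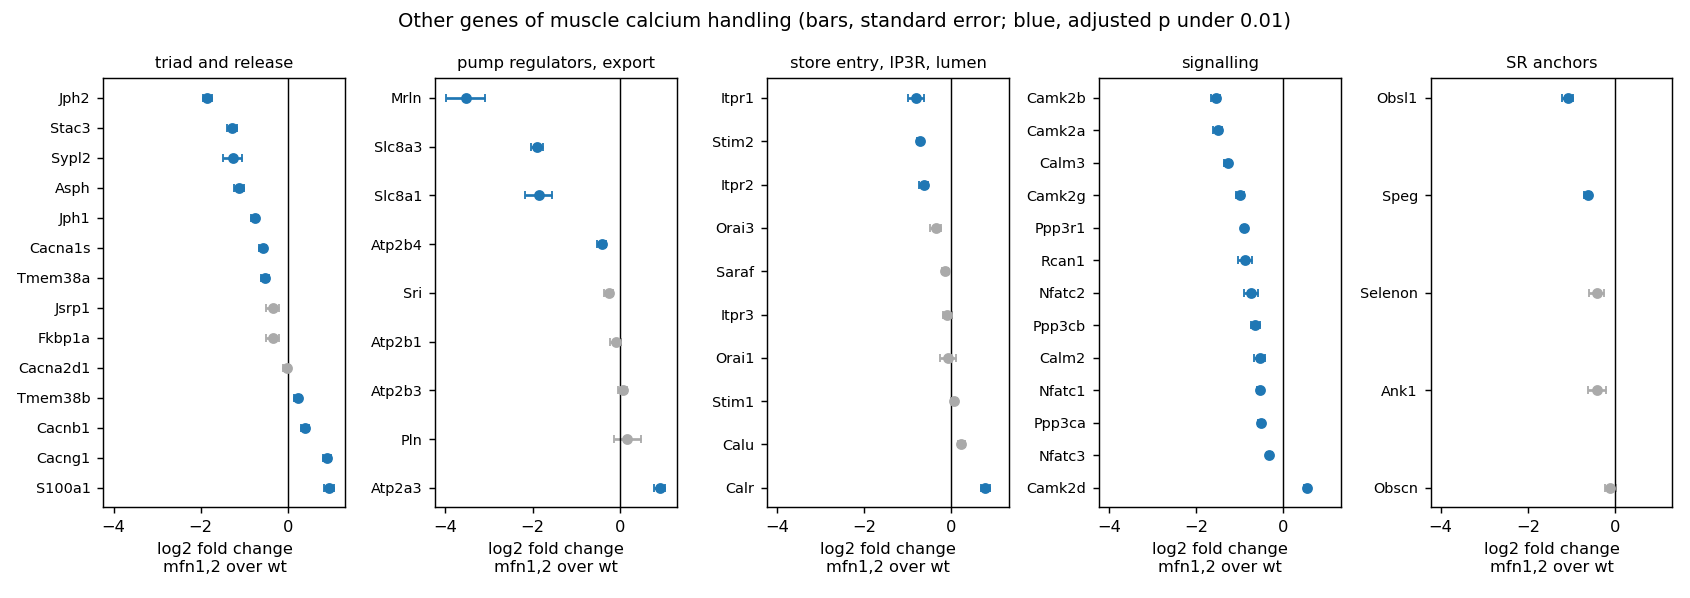
Log2 fold change of *mfn1,2* over wt after the main scaling for 51 genes of 5 lists related to the 9 genes. Bars are the standard error, and blue marks an adjusted *P* under 0.01 from limma (7 higher and 28 lower). With equal library totals 31 were higher and 4 lower, beside 79.1% and 2.6% of all tested genes.

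Exons of 4 of the 9 genes share bases with a gene on the opposite strand in GENCODE M21, and whether counting used the strand is not given in the sources used here. The longest overlap, with *Rabep2*, covers 21.9% of the exonic length of *Atp2a1*. *Rabep2* itself lay between 2.91 and 8.17 in *mfn1,2* and between 2.81 and 4.70 in wt, far below *Atp2a1*. The overlaps covered 8.0% of *Casq1*, 3.96% of *Ryr1* (with *Gm26604*) and 1.36% of *Atp2a2*, and levels of these genes carry that uncertainty.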

How the data were processed

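RNA of 28 TA muscles was sequenced from libraries made with a stranded total RNA kit. According to the submitters' notes, Trim Galore, HISAT2, featureCounts and DESeq2 were used, versions not given, with build mm9. The authors deposited a normalized signal for each gene in each library, described as DESeq2-normalized. Nearly all values above 0 were fractional (99.9994%), and lowest values scaled inversely with exonic length (log-log slope −1.02, 262 genes listed at 0 in 8 or more libraries), as a level per length does. Because depth is unknown, neither a count test nor a counting interval was possible, and the 14 libraries per genotype set the precision. All columns of values were used.

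Libraries were scaled by the median ratio to the geometric mean of 11693 genes above 0 in all 28. limma 3.58.1 (R 4.3.3, trended eBayes) was fitted with genotype alone to log2(value + 0.1) of 10819 genes whose mean was 0.5 or more. For ratios (without pseudocount), spreads and correlations, 2-sided permutation tests used 100000 resamples, or 20000 where libraries were left out. Libraries were clustered into 4 by average linkage of their correlations. Statistics were checked on simulated data, with Python 3.11.15, numpy 2.4.6, scipy 1.17.1 and matplotlib 3.10.9 for tables and plots.

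The 9 genes and the gene lists were chosen with earlier results of these data known. Named were the 9, *Mfn1* and *Mfn2*, the genes that all fibers use, relatives of the 9, and from each list up to 4 called genes of largest change and the largest of the opposite sign. *Myh6*, *Tnni3*, *Cacna1s*, *Cacng1*, *Tnnt3*, *Tnnc2*, *Rabep2* and *Gm26604* were named after their values were seen. A gene of the signalling list is not reported here. Promoters are from RefSeq (GRCm38.p6) and exon overlaps from GENCODE M21. The closing section gives the effect of 6 other scalings, 2 other pseudocounts (1 and 0.01), 2 other filters (none, or a mean of 5), robust variance, permutation tests per gene, medians for ratios, and omission of each library.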

Additional observations from a re-analysis of the deposited data

How the results depend on the processing

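*Atp2a2*, *Casq1*, *Casq2*, *Pvalb* and the 3 ratios that do not overlap kept direction and their side of the adjusted *P* threshold under every alternative tried for them, although the stricter altered call did not always hold. The other calls moved with the scaling. *Atp2a1* was at 0.26 with equal totals and 0.038 relative to *Actb*. *Ryr1* was at 0.37 as deposited, 0.78 with equal totals, 0.56 relative to *Actb* and 0.19 relative to the 4 fiber genes, and *Trdn* at 0.41 as deposited and 0.83 with equal totals. Relative to the median of all tested genes, *Atp2a1*, *Ryr1* and *Trdn* stayed below 0 under the 7 scalings. Of the 9 genes, 6 rose and 2 fell as deposited and with equal totals, 4 rose and 2 fell relative to *Actb*, and 4 rose relative to the fiber genes. The altered genes were 4 higher and 1 lower with equal totals (*Casq1* was lost), and 1 was higher with a pseudocount of 1 (*Atp2a2* was lost). Also 1 was higher (*Casq2* was lost) without WT6, WT8, WT9 and WT13, and without these and DM8, which were left out after seeing the data. Relative to the fiber genes, and with equal totals without mitochondrially encoded genes, 1 gene (*Pvalb*) did not overlap. As deposited 2 did not overlap (*Atp2a2*, *Hrc*) and with equal totals 3 (*Atp2a2*, *Casq2*, *Hrc*), none of them the 3 of the main scaling. Related calcium genes were 16 higher and 9 lower as deposited, 31 and 4 with equal totals, 17 and 6 relative to *Actb*, and 14 and 15 relative to the fiber genes. Fast-fiber genes higher numbered 3 as deposited, 4 with equal totals, and 0 without the 4 wt libraries or all 5 (0 to 1 leaving out each library, with 0 without WT5, WT6, WT8, WT9, WT13, DM4 or DM11), and those lower 4 with equal totals and relative to *Actb*. Slow-fiber genes higher numbered 8 as deposited, with equal totals, relative to *Actb* and relative to the fiber genes. Leaving out each library gave 2 to 3 higher and 4 lower among the 9 genes, the third being *Hrc* without WT7. Apart from the scalings, the cause of a change was not tested. No paired analysis was possible because the columns of the table do not carry the replicate numbers of the labels, and the planned ratio and correlation of *Sln* could not be computed without its row.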

Other observations

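Markers of cells other than fibers differed between lists after the main scaling. Of 10 endothelial genes 9 fell and 0 rose, with a summed level of 39.8 to 59.4 in *mfn1,2* and 63.1 to 110 in wt, but 0 fell and 3 rose with equal library totals. Of 10 fibroblast genes 5 fell, with a summed level of 89.2 to 794 in *mfn1,2* and 191 to 1546 in wt. In the values as deposited 0 fell and 1 rose, beside 4.95% and 62.3% of all tested genes. Of 8 tested macrophage genes 7 fell (summed level 6.19 to 19.6 in *mfn1,2* and 9.65 to 28.2 in wt), and in the values as deposited 0 fell and 0 rose. Of 5 smooth muscle genes 2 fell and 0 rose, of 4 tested adipocyte genes 0 passed in either direction (also 0 at an unadjusted *P* under 0.05), and of 4 tested Schwann cell genes 0 fell and 1 rose (limma). These lists hold none of the 9 calcium handling genes, and their part in the results was not tested.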
